A study of Rattus norvegicus with 8 samples.

Results

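The genes described here encode ubiquitin-conjugating enzymes (E2 enzymes, symbols that start with Ube2) and ubiquitin-specific proteases (symbols that start with Usp and a digit), the largest family of deubiquitinases. Members were all genes whose symbol in the platform annotation has one of these forms on a probe set that carries that symbol alone. Of 14218 genes with such a probe set, 72 were members, 29 of them E2 genes and 43 Usp genes, measured by 135 of 20832 probe sets. For a gene with several probe sets the one with the highest mean over the arrays was used. Usp6nl has a symbol of the Usp form but encodes a GTPase-activating protein for Rab proteins and not a protease, and it is kept in the counts. Another 8 probe sets carry a symbol of this form together with a second one, those of Ube2d2 with Ube2d3, of Ube2e1 with Ube2e2 and of Ube2v1 with Ube2v1l1, and are not named below.

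Gene expression was measured on Affymetrix arrays in the tibialis anterior, a fast-twitch hind limb muscle, of 8 adult Sprague-Dawley rats, 1 array per rat. The 4 hyperthyroid rats (replicates 1, 2, 3 and 5) received triiodothyronine (T3, the active thyroid hormone), 25 µg per 100 g of body weight in the peritoneal cavity every 2 days for 6 weeks, and muscle was taken 24 hours after the final injection. The 4 controls (replicates 7, 8, 9 and 11) were untreated. Each group held 3 males and 1 female of 200 ± 40 g at the start, and the samples are whole muscle, in which fewer cells of a type and less RNA per cell cannot be told apart.

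Ubiquitin is passed from an E1 activating enzyme to the catalytic cysteine of an E2, and from there, with the help of an E3 ligase, to a lysine of the target. The choice of E2 helps set whether a target receives a single ubiquitin, a chain that marks it for the proteasome or a chain that serves signalling. Ubiquitin-specific proteases cut ubiquitin off again, which rescues targets, edits chains and returns ubiquitin to the pool. In skeletal muscle this system degrades much of the contractile protein, excess thyroid hormone is known to speed muscle protein turnover, and the comparison shows whether the transcripts of these enzymes differ with chronic T3 excess.

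No member passed the test between the groups. Values are array intensities on a linear scale, and each gene was tested on log2(intensity + 3.41) with limma, together with all genes above a filter on low values. Of 10194 genes tested, 7 (0.0687%) had a limma adjusted p under 0.05, all higher in hyperthyroid muscle, and none of the 26 E2 and 38 Usp genes tested was among them. Before adjustment, 5 of 26 E2 genes (19.2%) and 4 of 38 Usp genes (10.5%) had a limma p under 0.05, against 10.6% of all genes. Those higher in hyperthyroid muscle were 3 E2 and 4 Usp genes (5.39% of all genes), and those lower were 2 E2 genes and no Usp gene (5.21% of all genes). The 4 hyperthyroid arrays did not overlap the 4 control arrays for 4 of 26 E2 genes (15.4%) and 5 of 38 Usp genes (13.2%), against 6.55% of all genes. Of those 9 genes, Ube2d1, Ube2l6, Ube2v2, Usp9x, Usp19, Usp25 and Usp33 were higher in all hyperthyroid arrays, and Ube2a and Usp14 were lower (3.35% and 3.21% of all genes).

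The median log2 fold change, hyperthyroid minus control, was 0.013 over the E2 genes, 0.035 over the Usp genes and -0.00067 over all genes. It was above 0 for 14 of 26 E2 genes, 21 of 38 Usp genes and 50% of all genes. The members were measured with less error than most genes, with a median standard error of 0.19 against 0.27. For 52 of the 64 members tested (81.2%) the 95% interval of the log2 fold change lay within 1 in either direction, a 2-fold difference, against 59.3% of all genes. For 18 members it lay within 0.5. Precision is limited throughout by the number of arrays, 4 per group.

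**Figure D1:**
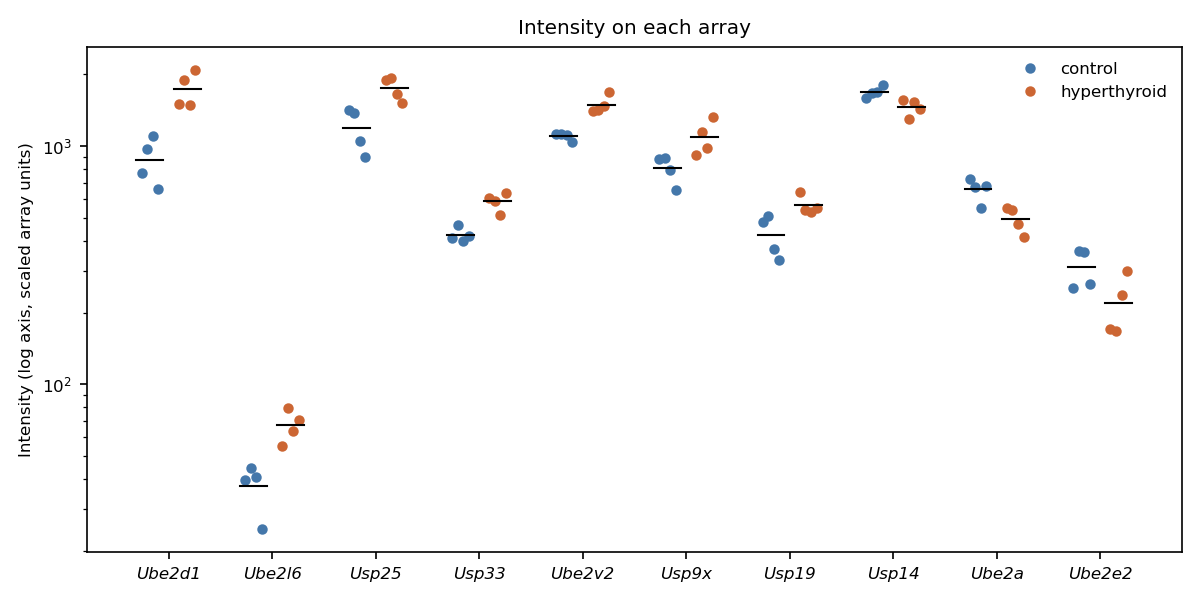
Intensity on each of the 8 arrays, on a log axis, for the 10 members with an unadjusted limma p under 0.05 or with groups that did not overlap. Each point is 1 array (n = 4 per group) and each bar is the group mean; for Ube2d1 all hyperthyroid arrays lie at or above 1491 and all controls at or below 1099, while for Ube2e2 the groups overlap.

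Ube2d1 stood closest to a call. It encodes a member of the small UbcH5 family of E2 enzymes, which work with a wide range of E3 ligases and often attach the first ubiquitin. Its intensity was 1497, 1897, 1491 and 2089 on hyperthyroid replicates 1, 2, 3 and 5, compared with 771, 977, 1099 and 664 on control replicates 7, 8, 9 and 11. Every hyperthyroid array lay above every control array, and the means were 1743 ± 299 and 878 ± 197 (SD, n = 4 each). This is a log2 fold change of 1.00 ± 0.18 (standard error), or 2.00-fold, with a 95% interval from 0.61 to 1.38. By the unadjusted p of limma it ranked 11 of 10194 genes, and its limma adjusted p was 0.0803. The second probe set of Ube2d1 gave a smaller difference, 0.29 ± 0.19, with means of 1277 ± 262 and 1046 ± 226 (SD, n = 4 each) and groups that overlapped.

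Whether Ube2d1 passed depended on the model. Its limma adjusted p was 0.0402 with a robust variance, 0.0433 with no filter on low values, 0.0359 with arrays centred on their medians and 0.0125 with arrays scaled to the hybridization controls. It was 0.42 without a trend of variance on level, and with 1 array left out the log2 fold change ran from 0.87 to 1.12 and the gene never passed. When both probe sets were averaged, the log2 fold change was 0.64.

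The stretches just before the annotated start of Ube2d1, of Usp25, another gene higher in all hyperthyroid arrays, and of Ube2a, the E2 gene lower in all of them, are printed below to show what these promoters look like. They are RefSeq sequences of the GRCr8 assembly, 250 bases each, 5′ to 3′ on the plus strand, at chr20:17308209-17308458, chr11:29090403-29090652 and chrX:120979834-120980083. Capitals mark GGGCGG on either strand, the GC box bound by Sp1-type factors.
Ube2d1: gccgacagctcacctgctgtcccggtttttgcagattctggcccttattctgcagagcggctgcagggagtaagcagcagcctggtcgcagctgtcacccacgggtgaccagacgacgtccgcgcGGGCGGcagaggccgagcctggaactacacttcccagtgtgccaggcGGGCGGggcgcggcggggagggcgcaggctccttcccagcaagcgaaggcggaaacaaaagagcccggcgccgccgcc
Usp25: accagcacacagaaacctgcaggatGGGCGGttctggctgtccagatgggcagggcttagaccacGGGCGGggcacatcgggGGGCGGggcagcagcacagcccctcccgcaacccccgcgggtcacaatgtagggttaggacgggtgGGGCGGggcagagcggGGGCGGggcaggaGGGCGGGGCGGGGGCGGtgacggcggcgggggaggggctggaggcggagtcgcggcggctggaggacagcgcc
Ube2a: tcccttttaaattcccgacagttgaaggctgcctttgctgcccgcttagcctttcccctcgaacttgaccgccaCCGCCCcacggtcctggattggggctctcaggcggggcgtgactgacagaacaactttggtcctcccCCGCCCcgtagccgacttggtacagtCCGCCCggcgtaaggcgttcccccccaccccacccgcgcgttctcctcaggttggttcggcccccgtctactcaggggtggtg
The Ube2d1 stretch holds 2 GC boxes and is 68.4% G or C, that of Usp25 holds 8 and is 74.8%, and that of Ube2a holds 3, with 64.4%. A GC box was found in 40 of 55 such stretches of 54 tested members, in 30.5% of 33469 stretches of all annotated genes and in 38.9% of those of protein-coding genes. The half-site of the thyroid hormone receptor in its plain form, AGGTCA on either strand, was in 4 of the 55 (7.27%). It was in 14.1% of all stretches, in 12.5% of those of protein-coding genes and in none of the 3 printed. A direct repeat of it with a gap of 4 bases was in none of the 55 and in 0.00299% of all stretches. These are counts of letters in a short window, which the arrays do not test.

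Apart from Ube2d1, no general E2 enzyme had groups that did not overlap. Of the 6 tested genes in this class, Ube2d1, Ube2d2, Ube2e2, Ube2e3, Ube2l3 and Ube2h, 4 had a log2 fold change above 0 and the median was 0.022. Ube2d2, the close relative of Ube2d1, lay at 461 ± 24.6 in hyperthyroid and 476 ± 59.7 in control muscle (SD, n = 4 each), with a 95% interval of the log2 fold change from -0.36 to 0.28. The coding sequences of this family are much alike, and whether probe sets of one detect another was not tested. Ube2e2, which carries an amino-terminal extension on a core like that of Ube2d1, was at 171, 167, 237 and 299 on hyperthyroid replicates 1, 2, 3 and 5 and at 254, 363, 358 and 264 on control replicates 7, 8, 9 and 11. Hyperthyroid replicate 5 lay above 2 of the controls, and the log2 fold change was -0.52 ± 0.22 (limma adjusted p = 0.441). Ube2l3, which hands ubiquitin to ligases with a catalytic cysteine of their own, had 1306 ± 282 against 1270 ± 171 (SD, n = 4 each), and its log2 fold change was 0.023 ± 0.17.

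Ube2a and Ube2b are the vertebrate copies of yeast Rad6, act with Ubr1 on proteins with destabilising amino termini and with other ligases on histones, and Ube2b is often measured in wasting muscle. Ube2a had intensities of 551, 538, 473 and 417 on hyperthyroid replicates 1, 2, 3 and 5, compared with 729, 676, 552 and 680 on control replicates 7, 8, 9 and 11. The groups were separated by a narrow margin, between hyperthyroid replicate 1 and control replicate 9. Ube2a thus had a log2 fold change of -0.41 ± 0.15 (limma adjusted p = 0.365), and the second probe set gave -0.44 ± 0.17, also without overlap. Ube2a lies on the X chromosome, and without the array of highest Xist in each group its value was -0.45. Once arrays were centred on their medians or scaled to the hybridization controls, the groups overlapped, with log2 fold changes of -0.19 and -0.093.

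Ube2b had 5815 ± 291 in hyperthyroid and 6539 ± 1247 in control muscle (SD, n = 4 each). Hyperthyroid arrays ran from 5507 to 6170, inside the control range of 5209 to 8126. Its log2 fold change was -0.15 ± 0.14, with a 95% interval from -0.45 to 0.15, and the second bright probe set gave -0.12 ± 0.12. The sign of both Ube2b and Ube2d2 turned under median centring and under scaling to the hybridization controls.

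Ube2n and Ube2v2 form a pair that builds chains used in DNA repair. Ube2v2 is a variant that lacks the catalytic cysteine and orients the acceptor ubiquitin. Ube2v2 had 1403, 1413, 1477 and 1688 on hyperthyroid replicates 1, 2, 3 and 5, compared with 1124, 1124, 1114 and 1038 on control replicates 7, 8, 9 and 11. The control arrays were close together and all hyperthyroid arrays lay above them. With a log2 fold change of 0.44 ± 0.12, or 1.36-fold, it had a limma adjusted p of 0.238, and the groups stayed apart under each of the 3 other scalings tried. Its catalytic partner Ube2n had 269 ± 21.0 against 218 ± 54.8 (SD, n = 4 each), with overlapping groups and a log2 fold change of 0.33 ± 0.20. A dimmer probe set of Ube2n gave -0.032 ± 0.44.

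The enzymes that extend chains or serve quality control at the endoplasmic reticulum were 6 in number (Ube2g1, Ube2g2, Ube2j1, Ube2j2, Ube2k and Ube2r2). None had an unadjusted limma p under 0.05, 3 had log2 fold changes above 0, and they ran from -0.18 to 0.33. Ube2r2, a partner of cullin ligases, had the highest, with 735 ± 129 against 579 ± 12.6 (SD, n = 4 each, limma adjusted p = 0.476). Hyperthyroid replicate 5, at 561, was below all controls, whereas replicates 1, 2 and 3, at 791, 863 and 725, were above them. Ube2g1 gave 0.083 ± 0.15 on its brightest probe set and 0.39 ± 0.18 on the other, the latter with overlapping groups and a limma adjusted p of 0.505 over all probe sets. Ube2g2 and Ube2j1, which act at the endoplasmic reticulum, gave 0.084 ± 0.26 and -0.11 ± 0.20.

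Among the E2 enzymes for ubiquitin-like proteins, Ube2l6, the interferon-inducible carrier of ISG15, had the second-largest difference among tested E2 genes. It was at 55.0, 79.3, 63.9 and 71.0 on hyperthyroid replicates 1, 2, 3 and 5 and at 39.8, 44.6, 40.9 and 24.6 on control replicates 7, 8, 9 and 11. All hyperthyroid arrays lay above all controls at this low level, and control replicate 11 was the lowest array. Its log2 fold change was 0.81 ± 0.36 (limma adjusted p = 0.453), with a 95% interval from 0.033 to 1.58. Of the interferon response genes listed, 9 of 10 were measured, 2 of them with a log2 fold change above 0 and 7 below, and their summed intensity was 531 to 666 in hyperthyroid and 576 to 940 in control arrays. ISG15 itself, Isg15, gave 0.34 ± 0.88, and the protease that removes it, Usp18, gave 0.42 ± 0.67 with control replicate 9 at 5.91 and the other controls at 40.9 to 98.4. The sign of Usp18 turned without control replicate 9, to -0.30. Ube2m and Ube2f, the carriers of NEDD8, gave -0.11 ± 0.17 and -0.013 ± 0.14.

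Of the remaining E2 genes, Ube2o, a large enzyme that is both E2 and E3 and is known from maturing red cells, gave 0.17 ± 0.21. The mitotic Ube2c and Ube2s, which serve the anaphase-promoting complex, gave -0.17 ± 0.46 and 0.17 ± 0.23. Ube2q1, Ube2q2, Ube2ql1 and Ube2z had log2 fold changes from -0.39 to 0.036, and none of these 7 had an unadjusted limma p under 0.05.

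**Figure D2:**
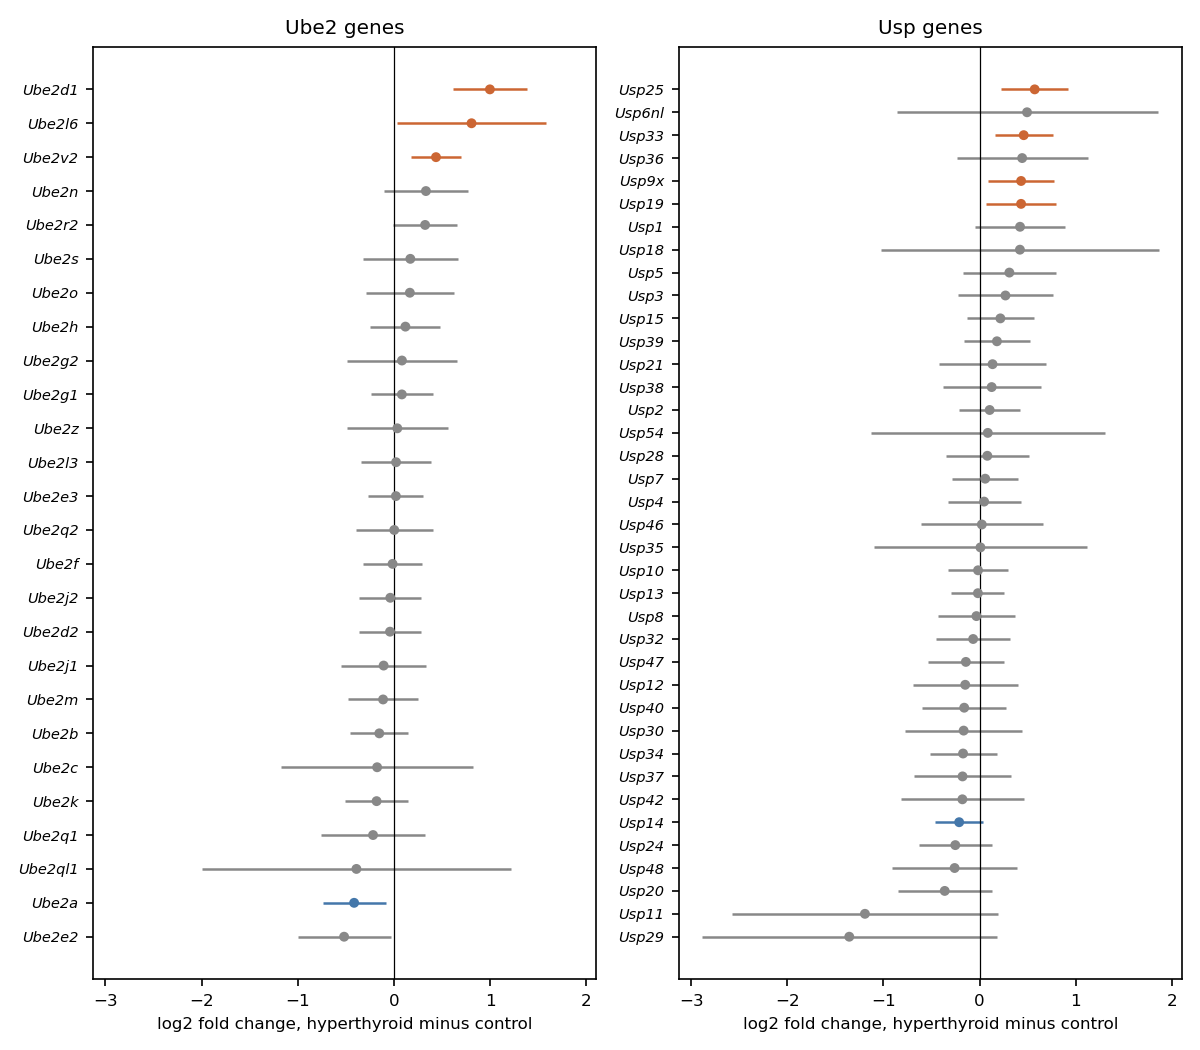
The log2 fold change, hyperthyroid minus control, of each tested Ube2 gene (left, 26 genes) and Usp gene (right, 38 genes), with the 95% interval of limma as a line. Orange and blue mark genes whose arrays did not overlap, higher (7) and lower (2) in hyperthyroid muscle; most grey intervals span 0 and are narrow, and the widest belong to dim genes such as Usp29, Usp11 and Ube2ql1.

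Among the Usp genes, 5 act on the proteasome, free chains or the endoplasmic reticulum, and 3 of these had groups that did not overlap (6.55% of all genes), 2 of them higher and 1 lower in hyperthyroid muscle. Usp25, which has a muscle isoform and acts in protein quality control, was at 1900, 1931, 1653 and 1518 on hyperthyroid replicates 1, 2, 3 and 5 and at 1421, 1380, 1055 and 905 on control replicates 7, 8, 9 and 11. Usp25 had a log2 fold change of 0.57 ± 0.16, or 1.49-fold (limma adjusted p = 0.256), the largest among the Usp genes with groups apart. With 1 array left out it ran from 0.45 to 0.67. It passed only when scaled to the hybridization controls (0.89, limma adjusted p = 0.0366), where the median of all genes was 0.32.

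Usp19, which is anchored in the endoplasmic reticulum and is studied in muscle wasting, was at 645, 539, 527 and 552 on hyperthyroid replicates 1, 2, 3 and 5 and at 480, 511, 370 and 333 on control replicates 7, 8, 9 and 11. The margin was narrow, with hyperthyroid replicate 3 just above control replicate 8. Its log2 fold change was 0.43 ± 0.17 (limma adjusted p = 0.406), and the other probe set gave 0.20 ± 0.23 with overlapping groups.

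Usp14, which sits on the proteasome and trims chains before the target is degraded, was at 1558, 1303, 1538 and 1438 on hyperthyroid replicates 1, 2, 3 and 5 and at 1597, 1670, 1682 and 1806 on control replicates 7, 8, 9 and 11. All hyperthyroid arrays lay below all controls by a small margin, with a log2 fold change of -0.21 ± 0.12 (limma adjusted p = 0.558). The direction did not hold under every scaling: it was 0.0076 with median centring and 0.11 with hybridization control scaling, and the groups then overlapped. Usp5, which takes apart free chains, gave 0.31 ± 0.22. Its relative Usp13 was at 3536 ± 286 against 3596 ± 501 (SD, n = 4 each), and its log2 fold change was -0.018 ± 0.13 with a 95% interval from -0.29 to 0.26.

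Among the 12 endosomal and signalling proteases tested, 2 had groups that did not overlap (6.55% of all genes) and the median log2 fold change was -0.025. Usp33, which acts on receptors at the membrane and on the Golgi, was at 606, 590, 513 and 635 on hyperthyroid replicates 1, 2, 3 and 5 and at 413, 468, 400 and 419 on control replicates 7, 8, 9 and 11. The log2 fold change was 0.46 ± 0.14 (limma adjusted p = 0.276), and the groups stayed apart under the 3 other scalings. Usp9x, a large X-linked protease with many targets, was at 916, 1146, 978 and 1325 on hyperthyroid replicates 1, 2, 3 and 5, against 879, 895, 797 and 652 in the controls taken as 7, 8, 9 and 11. Hyperthyroid replicate 1 was just above control replicate 8, and the log2 fold change was 0.43 ± 0.16 (limma adjusted p = 0.363). The 3 other probe sets of Usp9x gave 0.20 ± 0.15, 0.043 ± 0.20 and -0.89 ± 0.56, the last on a dim probe set, and when all 4 were averaged the value was -0.053. After quantile normalization the groups of Usp9x overlapped.

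The other 10 proteases of this class had overlapping groups. Usp2, whose transcript follows the circadian clock in many tissues, gave 0.10 ± 0.15 and, on a second probe set, -0.13 ± 0.17. Usp8, which works on endosomes, gave -0.033 ± 0.18, Usp10 gave -0.016 ± 0.15 and Usp15 gave 0.22 ± 0.16. Usp11 had a large but poorly measured difference, -1.19 ± 0.64, with 15.3, 37.4, 38.9 and 14.6 on hyperthyroid replicates 1, 2, 3 and 5, compared with 67.7, 14.7, 74.9 and 155 on control replicates 7, 8, 9 and 11. Control replicate 8 was as low as the lowest hyperthyroid arrays.

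Of the Usp genes listed as nuclear, 11 were tested, 8 of them with a log2 fold change above 0, and none had an unadjusted limma p under 0.05. Usp7, which acts on the ligase Mdm2 and on p53, gave 0.058 ± 0.16 on its brightest probe set. Its 2 other kept probe sets gave 0.49 ± 0.19 and 0.38 ± 0.23, and the first of these had groups apart, at 269 ± 27.5 against 191 ± 28.3 (SD, n = 4 each, limma adjusted p = 0.442 over all probe sets). Usp28 gave 0.080 ± 0.20. Usp30, which sits on the outer mitochondrial membrane and opposes the clearance of mitochondria, gave -0.17 ± 0.28. Usp29 passed the filter on low values through its controls. It gave -1.36 ± 0.71 at low intensities, 16.8 ± 10.4 against 45.7 ± 22.1 (SD, n = 4 each), that overlapped between the groups.

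Another 8 members lay under the filter on low values and were not tested, Ube2d2b, Ube2t, Ube2u, Usp27x, Usp31, Usp43, Usp44 and Usp49. Their group means ran from 2.35 to 34.1, and none had groups that did not overlap. Usp43 had the highest of these means, 34.1 ± 11.5 in hyperthyroid against 12.6 ± 11.2 in control muscle (SD, n = 4 each). Ube2d2b, annotated as a copy of Ube2d2, was at 40.8 and 40.1 on control replicates 7 and 11 and at 0.928 to 3.79 on the 6 other arrays.

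Probe sets of the same gene often disagreed in sign. Of 31 members with more than 1 kept probe set, 18 had all log2 fold changes on the same side of 0 and 13 had not, and the median distance between the highest and the lowest was 0.34. Of 101 kept member probe sets, 12 (11.9%) had an unadjusted limma p under 0.05 and 3 of these were not the brightest of their gene, against 9.68% of all kept probe sets. Ube2a, Ube2b and Usp4 had probe sets within 0.1 of each other, while those of Ube2d1 differed by 0.71 and those of Usp9x by 1.32.

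**Figure D3:**
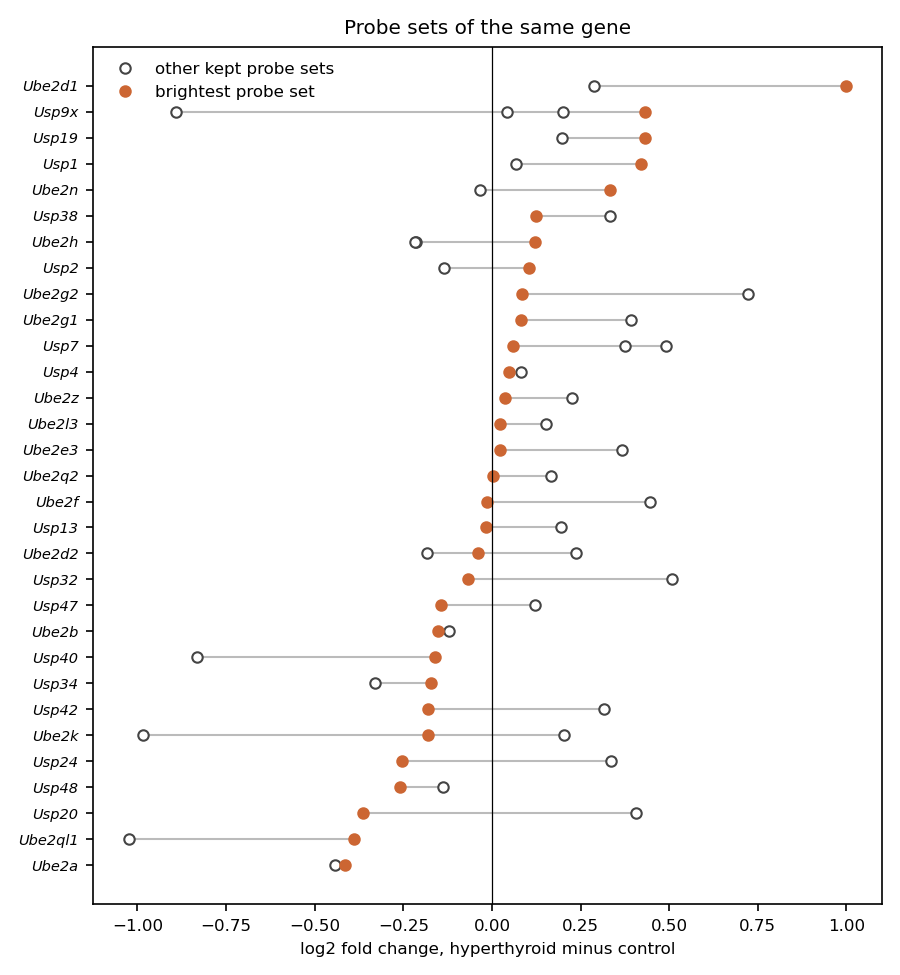
The log2 fold change of every kept probe set of the 31 members with more than 1, the brightest filled and the others open. Ube2d1 at the top has its second probe set at 0.29, well left of the brightest at 1.00, and 13 of the 31 genes have probe sets on both sides of 0.

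How many members lay above 0 depended on how arrays were put on a common scale. Hyperthyroid arrays had lower medians than controls, 38.8 to 42.0 against 43.5 to 54.9. The deposited scale gives every array the same trimmed mean, 150. Centring each array on its median shifted the median log2 fold change of all genes to 0.22, with 23 of 26 E2 genes, 33 of 38 Usp genes and 72.9% of all genes above 0. Scaling to 18 hybridization control probe sets shifted it to 0.32, with 23 of 26, 35 of 38 and 80% above 0. Under these scalings the E2 median was 0.23 and 0.33 and the Usp median 0.26 and 0.35, close to those of all genes. After quantile normalization 12 of 26 E2 genes and 21 of 38 Usp genes were above 0.

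**Figure D4:**
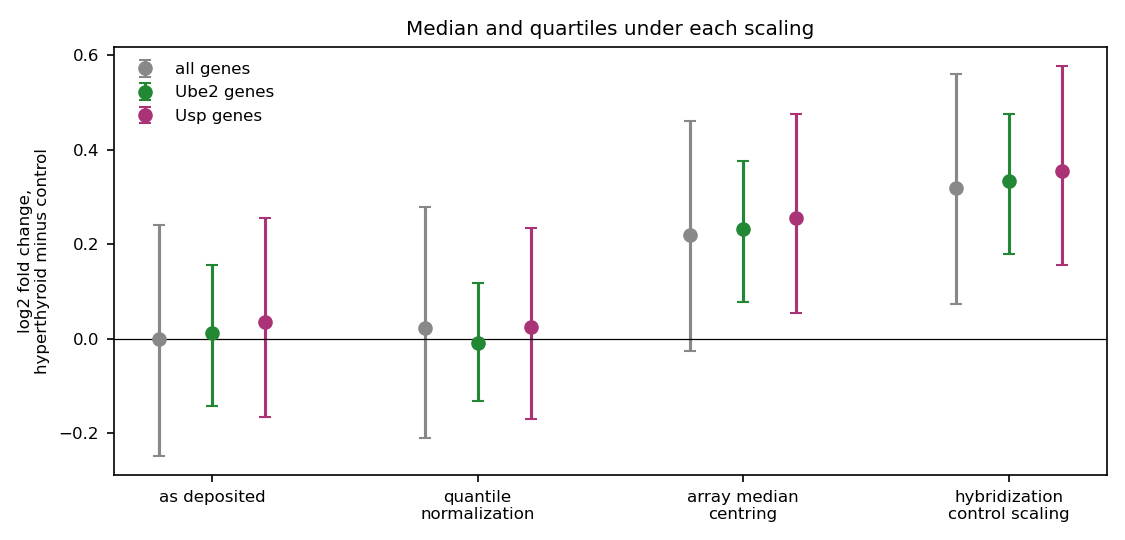
Median (point) and quartiles (bars) of the log2 fold change, hyperthyroid minus control, over all genes, Ube2 genes and Usp genes under the deposited scale and 3 others. All 3 groups of genes shift together, from medians near 0 to medians between 0.32 and 0.35 under hybridization control scaling.

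Across single arrays the mean of the E2 genes, each centred on its own mean, was lowest on control replicates 11 and 7 (-0.11 and -0.099) and highest on control replicate 9 and hyperthyroid replicate 3 (0.13 and 0.12). The Usp genes spanned -0.063 on hyperthyroid replicate 5 to 0.11 on hyperthyroid replicate 2, and all genes -0.040 to 0.069. Control replicates 7 and 11 were also the arrays with the highest level of the 10 slow-fibre genes, whose summed intensity was 4895 to 50293 in controls and 1562 to 10145 in hyperthyroid arrays, and none of the 10 was at 0. The part of fibre type in the values of the E2 genes was not tested. Without those 2 controls the E2 median was -0.11, and Ube2d1 gave 0.73 (limma adjusted p = 0.29). Of the 10 fast-muscle markers 9 were measured, and their summed intensity was 266539 to 323361 in hyperthyroid and 327257 to 385212 in control arrays, without overlap, and these genes were strongly detected on all arrays as the labelled tissue requires. The first principal component set control replicate 11 apart, at -94.5 with all others between -23.8 and 25.3. The second did so for control replicate 9, at 86.9 with all others between -26.9 and 8.94. Without both of them Ube2d1 gave 0.99 (limma adjusted p = 0.267) and Usp25 gave 0.31 (limma adjusted p = 0.60).

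**Figure D5:**
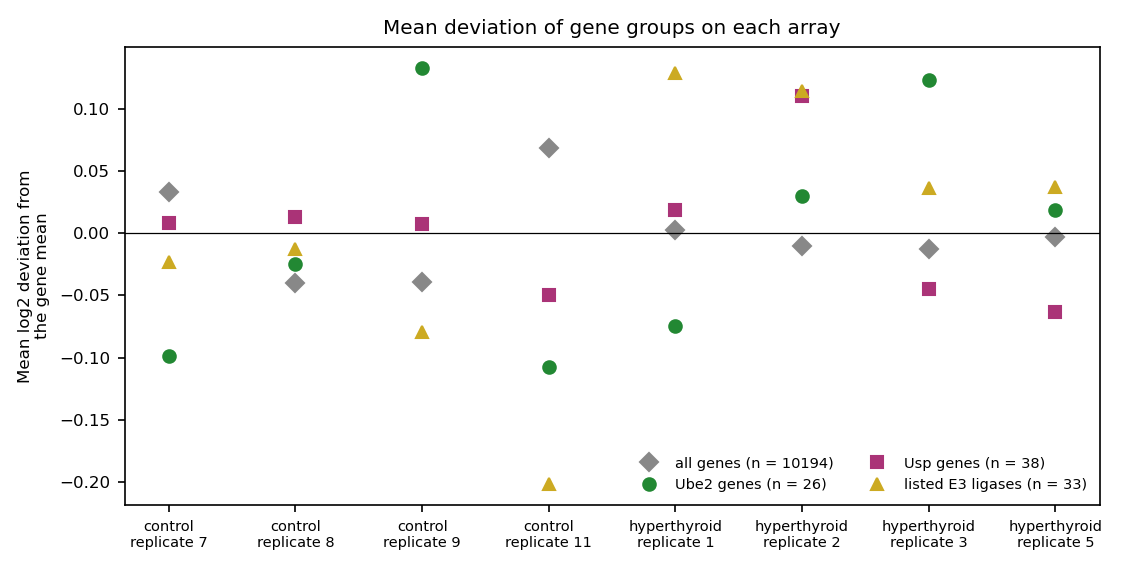
Mean log2 deviation from the gene mean on each of the 8 arrays for all genes (n = 10194), Ube2 genes (n = 26), Usp genes (n = 38) and listed E3 ligases (n = 33). The Ube2 and Usp points of the groups overlap, whereas the E3 points lie between 0.036 and 0.13 on hyperthyroid and between -0.20 and -0.012 on control arrays.

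Other genes of the pathway, from lists set down for this comparison, were likewise without a call over all genes on the deposited scale. For comparison, 10.6% of all genes had an unadjusted limma p under 0.05, 5.39% higher and 5.21% lower, and 50% were above 0. Of 8 E1 genes 7 were tested, 4 with a log2 fold change above 0, and 2 (28.6%) had an unadjusted limma p under 0.05, both higher. These 2, named after their values were seen, were Sae1, a subunit of the E1 for SUMO, at 1.09 ± 0.32 (limma adjusted p = 0.261), and Uba1, the main E1 for ubiquitin, at 0.33 ± 0.13 (limma adjusted p = 0.405). Of 41 E3 ligases 33 were tested, 23 (69.7%) above 0 with a median of 0.14, and 6 (18.2%) had an unadjusted limma p under 0.05, all higher. The median of the E3 list was 0.12 after quantile normalization, against 0.023 over all genes. With median centring and hybridization control scaling it was 0.36 and 0.46, against 0.22 and 0.32 over all genes. Among these 6 was Ubr1, the ligase that works with Ube2a and Ube2b, at 0.46 ± 0.15 (limma adjusted p = 0.312), named after its value was seen. Of 28 deubiquitinases outside the Usp family 24 were tested, 16 (66.7%) above 0 with a median of 0.10. Of the 24, 4 (16.7%) had an unadjusted limma p under 0.05, 3 higher and 1 lower. The one lower was Uchl3, named after its value was seen, at -0.44 ± 0.14 (limma adjusted p = 0.296). Ubiquitin-like modifiers (6 of 8 tested) and other genes with an E2-like fold (6 of 7) had medians of 0.076 and 0.14. With hybridization control scaling 1 E1 gene, 1 deubiquitinase outside the Usp family and 2 E3 ligases were called, among 113 of all 10194 genes.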

How the data were processed

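RNA of 8 rat muscles was hybridised to 1 array each. The authors deposited linear intensities made with GCOS, the Affymetrix software, per the submitters' processing notes. Its settings are not known here. The mean after leaving out 2% at each end was 150 on every array, as scaling to 1 target gives. Priming was with oligo(dT), per the labels' protocols, which favours the 3′ part of a transcript.

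Platform symbols named the probe sets, and Entrez identifiers matched all 72 members to RefSeq genes (GRCr8) with no change of symbol. The 10th percentile of all intensities, 3.41, was added before taking log2, and differences are on that scale, which understates the change of dim genes. Probe sets with a mean log2 value above the 40th percentile (4.69) were kept (18608 of 31099), and the brightest kept probe set stood for its gene. The 10194 genes were fitted with limma 3.58.1 in R 4.3.3 (lmFit, eBayes with a variance trend, two-sided, Benjamini-Hochberg adjustment at 0.05), as were the kept probe sets. The fit was tested on simulated data. The p-values measure the spread between single rats.

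Members and lists were chosen with earlier results of these data known, so lists carry no test of their own. Members were named when their unadjusted p was under 0.05, when their groups did not overlap or from a list of enzymes set whatever their values, and other members were named after their values were seen. Ube2d3, Ube2e1 and Ube2v1, also on that list, had no probe set of their own.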

Additional observations from a re-analysis of the deposited data

Results flagged for a closer look

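Of 60 groups of 4 arrays examined (30 named members in each of 2 conditions), 2 (3.33%) had 1 array far from the others by Dixon's criterion, which chance gives in about 1 of 20 groups. Ube2o was at 152 on hyperthyroid replicate 5, against 216 to 223 on the 3 other hyperthyroid arrays, and its log2 fold change without that array was 0.30. Ube2v2 was at 1038 on control replicate 11, below the 1114 to 1124 of the other controls, and its log2 fold change without that array was 0.41.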

How the results depend on the processing

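Among the 30 named members, 13 kept the sign of their log2 fold change under all alternatives run for them, Ube2d1, Ube2v2, Ube2l6, Ube2a, Ube2e2, Usp19, Usp25 and Usp33 among them, and 17 did not. No E2 or Usp gene was called under most alternatives. The exceptions were 1 E2 gene, Ube2d1, with array median centring, hybridization control scaling, no filter or a robust variance, and 1 Usp gene, Usp25, with hybridization control scaling. The count of all genes called was 7, and it was 12 with median centring, 113 with hybridization control scaling, 11 with no filter, 14 with a robust variance, 0 without a variance trend, 1 when probe sets were averaged and 1 at an adjusted p of 0.01. It was 0 without both control replicates 9 and 11, 3 without both 7 and 11, and 0 to 7 with 1 array left out (0 without hyperthyroid replicate 3, 1 without control replicate 7, 3 without control replicate 9 and 4 without hyperthyroid replicate 2). Where it was 0, limma still gave 976, 903 and 824 genes with an unadjusted p under 0.05 without the trend, without controls 9 and 11 and without hyperthyroid replicate 3.

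The median of the E2 genes moved to 0.23 and 0.33 with median centring and hybridization control scaling and to -0.11 without control replicates 7 and 11, and ran from -0.041 to 0.066 with 1 array left out. That of the Usp genes moved to 0.26 and 0.35 under those scalings and to -0.055 without the array of highest Xist in each group, and ran from -0.011 to 0.089.

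Signs turned as follows. Median centring gave 0.069 for Ube2b, 0.18 for Ube2d2, 0.11 for Ube2j1, 0.11 for Ube2m, 0.19 for Usp8, 0.20 for Usp10, 0.20 for Usp13, 0.0076 for Usp14 and 0.054 for Usp30. Hybridization control scaling gave 0.17, 0.28, 0.21, 0.21, 0.29, 0.30, 0.30, 0.11 and 0.15 for the same genes. The mean of probe sets gave 0.0051 for Ube2d2, 0.088 for Usp13, -0.015 for Usp2 and -0.053 for Usp9x, and quantile normalization gave -0.0033 for Ube2l3. Without control replicates 7 and 11 values were -0.070 for Ube2g1, -0.37 for Ube2g2, -0.12 for Ube2l3, 0.011 for Usp13, 0.18 for Usp30 and -0.052 for Usp7. Without the arrays of highest Xist they were -0.095 for Ube2g1, -0.092 for Ube2g2 and -0.070 for Usp28. Without control replicates 9 and 11 they were -0.024 for Usp18, -0.068 for Usp2, -0.17 for Usp28 and 0.15 for Usp8, and array weights gave -0.053 for Usp28. With 1 array left out, ranges that crossed 0 were -0.12 to 0.0089 for Ube2d2, -0.0097 to 0.17 for Ube2g1, -0.14 to 0.26 for Ube2g2, -0.22 to 0.0028 for Ube2j1, -0.092 to 0.16 for Ube2l3, -0.19 to 0.0077 for Ube2m, -0.13 to 0.060 for Usp8, -0.068 to 0.044 for Usp10, -0.080 to 0.064 for Usp13, -0.30 to 0.85 for Usp18, -0.021 to 0.21 for Usp28, -0.31 to 0.049 for Usp30 and -0.017 to 0.12 for Usp7. The cause was not tested. No paired analysis was possible because the groups share no replicate number. Signal near background limits the dim members.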
